A study of Mus musculus with 6 samples.

Results

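The genes described here encode the enzymes and readers that silence chromatin: the Polycomb repressive complexes, the DNA methylation and Tet oxidation enzymes, the histone deacetylases, and a few enzymes that oppose them or move nucleosomes. They were taken as 35 named genes, through every spot whose only gene symbol in the probe annotation was one of them, and 34 of the 35 had such a spot (68 spots in all), out of 19077 genes measured on 45220 spots. Arid1a, a subunit of the BAF remodelling complex, had no spot of its own and was not analysed here. The RNA came from the hind limbs of Swiss white mouse embryos, microdissected where the tibia and fibula form: cartilage anlagen at 13.5 days post coitum (dpc) from 4 hind limbs, mesenchymal condensations at 12.5 dpc from 3, and pre-condensed mesenchyme at 11.5 dpc from 4. Tissue of separate mice was pooled within each stage and its RNA was amplified in 2 rounds before labelling, so each stage was 1 sample, with no replicate of a stage and no p-value. Each pair of stages was hybridised on 2 two-colour arrays with the dyes exchanged. In array 1 of a pair the later stage carried Cy5 and in array 2 it carried Cy3. All values below are log2 ratios of the later over the earlier stage, with each of the 6 arrays centred on its own median, and the fitted value of a gene joins all 6 arrays by least squares. The technical error of a pair is the distance of either array from the pair's mean, and it measures hybridisation and dye only. In pooled tissue, fewer cells of a type and less RNA per cell cannot be told apart.

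Polycomb repressive complex 2 (PRC2) places methyl groups on lysine 27 of histone H3, and Polycomb repressive complex 1 (PRC1) binds that mark through its chromobox (Cbx) subunits and adds ubiquitin to histone H2A. The DNA methyltransferases write 5-methylcytosine on CpG dinucleotides, either copying an existing pattern after replication (Dnmt1, guided by Uhrf1) or setting a new one (Dnmt3a and Dnmt3b), and the Tet dioxygenases oxidise it. Histone deacetylases (Hdac) remove acetyl groups from histones and other proteins; the class I enzymes work in co-repressor complexes, and the class IIa enzymes bind transcription factors such as the Mef2 proteins. In cartilage the best known member is Hdac4, which holds back chondrocyte hypertrophy.

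Markers of cartilage and of some other cells differed between the stages, and the pairs of arrays did not agree equally well. Of 12 cartilage markers, 9 were past 3-fold higher for 13.5 over 11.5 dpc in the direction read from the dyes, and the median of the list was 3.84. The rest, transcription factors of the Sox family, lay from -0.40 (Sox9, the lowest of the list) to 0.19. All 6 measured erythroid markers were lower at 13.5 than at 11.5 dpc (median -2.73, 4 past 3-fold). Medians of the other marker lists were 0.26 for skeletal muscle (9 genes, Myh3 past 3-fold higher), -0.64 for endothelium (7 genes, Tie1 past 3-fold lower), -0.32 for macrophages (5 genes), 0.00 for ectoderm (7 genes, Perp past 3-fold higher), 0.23 for Schwann and neural crest cells (4 genes, S100b past 3-fold higher) and -0.02 for 12 housekeeping genes. S100b, at 7.02, stood apart from the rest of its list (-0.125 for Erbb3 to 0.50) and near the cartilage marker Snorc at 7.03. Which cells its RNA came from was not tested. Ratios give no levels, so it is not known which of these markers were absent from a pool, and the part of these cells in the results below was not tested. The 2 arrays of a pair correlated over spots at r of 0.518 for 13.5 over 11.5 dpc, 0.332 for 13.5 over 12.5 dpc and 0.397 for 12.5 over 11.5 dpc (spots are not independent replicates). Of the 45220 spots, 15135 held ratios of whole numbers up to 12 on at least 2 arrays, a sign of weak signal, and are called dim; 15 of the 68 member spots were dim.

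Between 11.5 and 13.5 dpc, 5 of the 34 genes were at least 3-fold lower and 0 were at least 3-fold higher. Over all 19077 genes, 2.57% were at least 3-fold lower and 2.93% at least 3-fold higher. The 5 were Ezh2, the main H3K27 methyltransferase of PRC2 (4.59-fold lower), Hdac2, a class I deacetylase (4.29-fold), Cbx7, a chromobox reader of PRC1 (3.49-fold), and both de novo DNA methyltransferases, Dnmt3a (3.19-fold) and Dnmt3b (3.17-fold). At a 2-fold difference 10 of the 34 were lower (8.5% of all genes) and 0 higher (7.43% of all genes); the 5 added genes were Cbx8, Tet2, Uhrf1, Smarca5 and Hdac7. The nearest to the 3-fold line on the outside was Cbx8 at -1.25, and the nearest on the inside was Dnmt3b at -1.66.

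Ezh2 was measured by 1 spot, which was not dim. It read -1.96 and -2.46 on the 13.5 over 11.5 dpc arrays, -1.28 and -1.15 on the 13.5 over 12.5 dpc arrays and -0.98 and -0.94 on the 12.5 over 11.5 dpc arrays. All 6 arrays lay below 0, and the fit gave -2.20 over the whole interval (technical error 0.25), with -0.97 by 12.5 dpc and -1.23 after it. How a difference divides between the steps depends on the centring for every gene: on the values as deposited, without centring, the steps of Ezh2 were -0.53 and -1.51 and the whole -2.03. The sum of the steps from the 4 indirect arrays was -2.17, within the technical error of the direct pair, and 134 of the 19077 genes had a lower fitted value. Hdac2 had 2 spots, 1 of them dim, that fitted -2.15 and -2.05. Its arrays read -2.82 and -1.67 for 13.5 over 11.5 dpc, -1.66 and -0.68 for 13.5 over 12.5 dpc, and -0.96 and -0.33 for 12.5 over 11.5 dpc. The sign was the same on all 6, but the arrays of each pair stood further apart than for Ezh2, with technical errors of 0.57, 0.49 and 0.31.

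Cbx7 read -1.72 and -1.89 on the 13.5 over 11.5 dpc arrays, -1.79 and -0.53 on the 13.5 over 12.5 dpc arrays, and -1.11 and -0.15 on the 12.5 over 11.5 dpc arrays, through 1 spot that was not dim. The whole interval was therefore read closely by its direct pair (technical error 0.08), whereas the split of the decline between the steps (-0.64, then -1.17) was not, since their technical errors were 0.48 and 0.63. Dnmt3a read -1.50 and -1.94, -0.98 and -0.51, and -0.91 and -0.79 on the same 3 pairs, and its 3 spots fitted -2.23, -1.55 and -1.25 for the whole interval. Dnmt3b read -1.47 and -1.87, -0.38 and -0.04, and -1.63 and -1.25, from 1 spot. The de novo methyltransferases thus ended at the same level relative to 11.5 dpc (-1.68 for Dnmt3a and -1.66 for Dnmt3b) by different courses: the steps were -0.89 and -0.78 for Dnmt3a, and -1.45 and -0.22 for Dnmt3b (technical errors 0.19 and 0.17). Without centring they were -0.45 and -1.06 for Dnmt3a and -0.999 and -0.50 for Dnmt3b, so the larger step was the earlier one for Dnmt3b either way and changed sides for Dnmt3a.

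**Figure D1:**
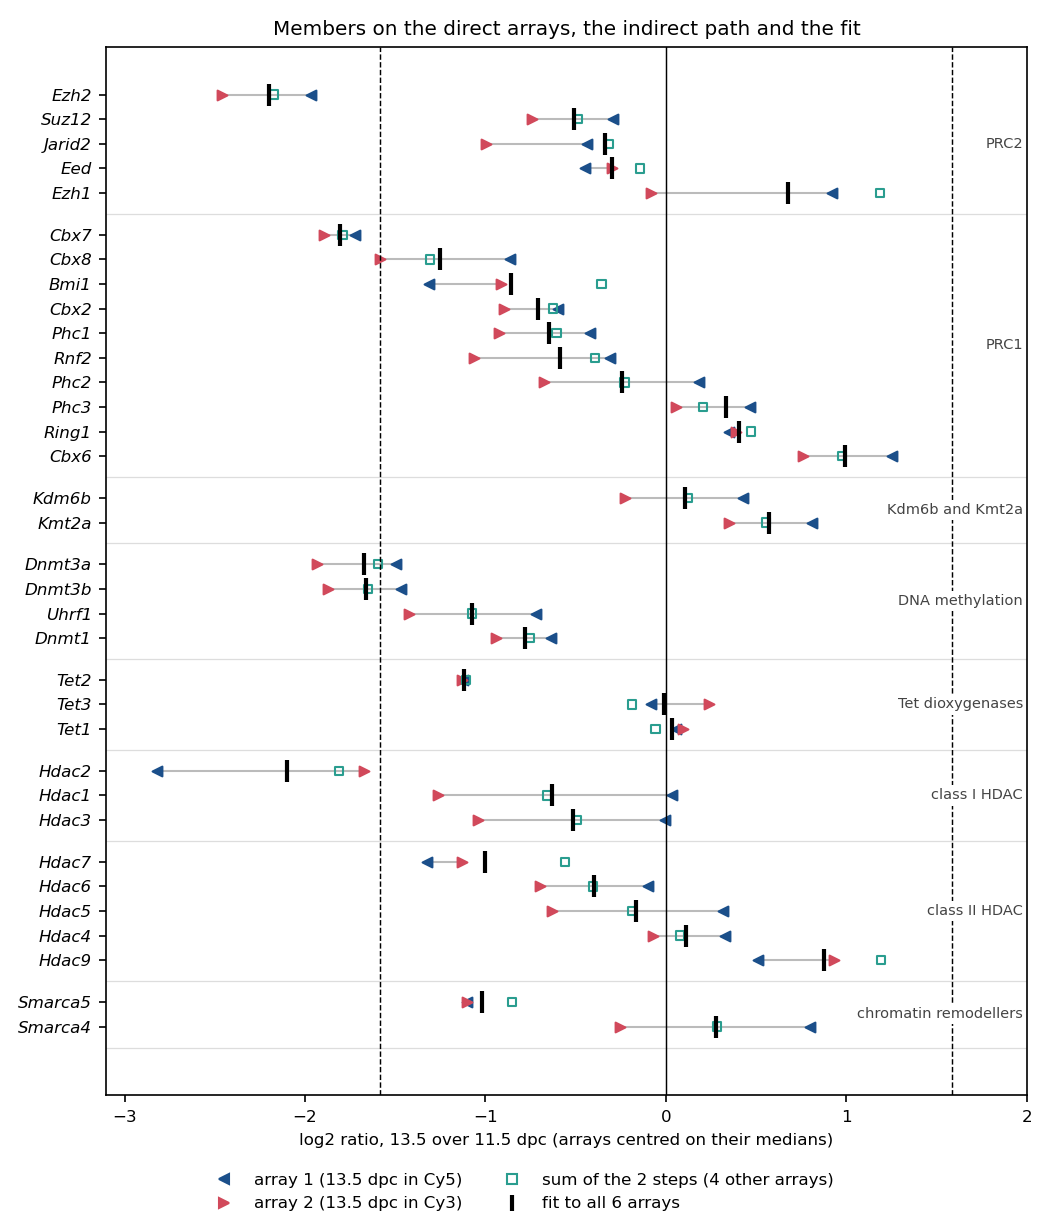
Log2 ratio of 13.5 over 11.5 dpc for the 34 genes, by role, with triangles for the 2 direct arrays, open squares for the sum of the 2 steps from the 4 other arrays and bars for the fit; dashed lines mark 3-fold. Ezh2, Cbx7, Hdac2, Dnmt3a and Dnmt3b lie past the lower line, and no gene lies past the upper one.

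The promoters of these 5 genes are shown because CpG dinucleotides are what the DNA methyltransferases act on and because Polycomb complexes are known to bind CpG-rich promoters. Sequences came from RefSeq on GRCm38.p6, as windows of 250 bases before to 50 after each annotated start (32851 windows), and 30 of the 34 genes matched an entry; Cbx2, Hdac1, Hdac3 and Kdm6b did not. Each line gives the 100 bases before the start with the most CpG, 5′ to 3′ on the strand of the gene, with each CpG in capitals. The windows are chr6:47595031-47595130 (minus strand) for Ezh2, chr10:36974444-36974543 (plus) for Hdac2, chr15:79932647-79932746 (minus) for Cbx7, chr12:3807060-3807159 (plus) for Dnmt3a and chr2:153649349-153649448 (plus) for Dnmt3b. Hdac9, a gene higher at 13.5 dpc, is added for contrast, at chr12:34528890-34528989 (minus).
Ezh2: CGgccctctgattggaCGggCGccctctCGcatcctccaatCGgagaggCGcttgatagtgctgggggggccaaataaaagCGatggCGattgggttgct
Hdac2: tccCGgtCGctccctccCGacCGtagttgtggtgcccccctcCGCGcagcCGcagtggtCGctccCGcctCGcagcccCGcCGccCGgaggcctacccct
Cbx7: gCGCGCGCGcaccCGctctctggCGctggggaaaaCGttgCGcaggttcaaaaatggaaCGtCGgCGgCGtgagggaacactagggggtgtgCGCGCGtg
Dnmt3a: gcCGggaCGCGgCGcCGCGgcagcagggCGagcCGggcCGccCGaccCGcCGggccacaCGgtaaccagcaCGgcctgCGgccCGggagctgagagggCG
Dnmt3b: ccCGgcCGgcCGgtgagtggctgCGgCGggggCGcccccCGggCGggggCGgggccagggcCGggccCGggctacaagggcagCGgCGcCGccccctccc
Hdac9: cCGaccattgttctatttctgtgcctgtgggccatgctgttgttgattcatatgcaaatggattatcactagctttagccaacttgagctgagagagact

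All 5 genes had at least 30 CpG in their 300-base window: 31 for Ezh2, 36 for Hdac2, 33 for Cbx7, 47 for Dnmt3a and 30 for Dnmt3b, against 3 for Hdac9. Counts this high were common in the whole family, however, since 18 of the 30 genes with an entry reached 30 CpG (12.9% of all genes in the table did), and their median was 31 against 8 over all genes, taking the richest start of each. Genes with values above 0 were among them, such as Kmt2a with 36, Ring1 with 37, Smarca4 with 33 and Cbx6 with 31. Members past 3-fold and members that were not overlapped in CpG number.

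In PRC2 only Ezh2 was past 3-fold. The median of the complex over 5 genes was -0.34 for 13.5 over 11.5 dpc, and away from Ezh2 the core subunits Suz12 and Eed had -0.51 and -0.30 and the DNA-binding cofactor Jarid2 had -0.34. Ezh1, the second catalytic subunit, known from adult and non-dividing tissues, stood at the opposite end with a fitted 0.68. Its arrays read 0.92 and -0.08 for 13.5 over 11.5 dpc, 0.80 and -0.15 for 13.5 over 12.5 dpc and 1.54 and 0.19 for 12.5 over 11.5 dpc. The single Ezh1 spot was dim and its direct arrays had opposite signs (technical error 0.50), so the higher value of Ezh1 at 13.5 dpc was not resolved from technical error as clearly as the lower value of Ezh2. For Eed the 3 spots disagreed: the spot that was not dim, from its RefSeq transcript, fitted -1.49, and the 2 dim spots, from cDNA clones, fitted 0.18 and 0.41. Jarid2 was similar, with -1.30 and -0.10 for its RefSeq transcript and 0.38 for a dim clone spot that had no value on either 13.5 over 11.5 dpc array.

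PRC1 held paralogues at both ends of the range. The Cbx subunits, which give the complex its affinity for methylated H3K27, had fitted values for 13.5 over 11.5 dpc of -1.80 (Cbx7), -1.25 (Cbx8), -0.71 (Cbx2) and 1.00 (Cbx6). The value of Cbx2 is a mean of a spot at -1.375 and a dim spot of the same transcript at -0.04. Without dim spots Cbx2 would be lower than Cbx8. Cbx6 read 1.25 and 0.76 on the 13.5 over 11.5 dpc arrays, 1.07 and 1.22 on the 13.5 over 12.5 dpc arrays, and -0.24 and -0.10 on the 12.5 over 11.5 dpc arrays. Its fit was 1.16 after 12.5 dpc and -0.16 before it, with technical errors of 0.07 in both steps (0.88 and 0.29 without centring), and all 3 of its spots lay above 0 for the whole interval (0.58 to 1.55). Cbx7 and Cbx6 ran in opposite directions in the same step: for 13.5 over 12.5 dpc the fitted difference was 2.24-fold lower for Cbx7 and 2.23-fold higher for Cbx6. Only the directions are settled, since without centring the log2 values were -1.45 for Cbx7 and 0.88 for Cbx6. The technical error of Cbx7 in this step was 0.63. All are differences of each transcript between stages, not levels of one against the other.

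The remaining PRC1 genes lay closer to 0. Rnf2, the main ubiquitin ligase of the complex, had -0.59 and its paralogue Ring1 had 0.40, and the 2 direct arrays shared the sign for each (-0.31 and -1.06 for Rnf2, 0.35 and 0.39 for Ring1). These are means over 2 spots each, and the spots did not all share it. Those of Rnf2 read -0.75 and -1.21, and 0.13 and -0.91. The Ring1 spot that was not dim read -0.10 and 0.44, and the dim one 0.80 and 0.34. The Polyhomeotic subunits, which join complexes to each other, had -0.65 (Phc1), -0.24 (Phc2) and 0.33 (Phc3, of whose 2 dim spots 1 had no value on 3 arrays). The Phc3 spot that was not dim fitted -0.01. Bmi1, a partner of the ligases and a repressor of the Ink4 locus, had -0.86, a mean of a spot at -1.89 and a dim spot of the same transcript at 0.17. Without dim spots Bmi1 would be past 3-fold too.

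Kdm6b, a demethylase that removes the PRC2 mark, and Kmt2a, a trithorax methyltransferase of H3K4 that opposes Polycomb, had no lower value at 13.5 than at 11.5 dpc (0.11 and 0.57). Kdm6b dipped at the condensation stage. It read -1.19 and -1.05 on the 12.5 over 11.5 dpc arrays, 1.13 and 1.36 on the 13.5 over 12.5 dpc arrays, and 0.43 and -0.23 on the direct 13.5 over 11.5 dpc arrays. With centring, 40 genes (0.21% of all genes) were at least 2-fold lower at 12.5 than at both other stages, and Kdm6b was the only member among them. Without centring its steps were -0.68 and 0.96, and 3 genes and no member met that mark. The housekeeping gene Gapdh had the same shape (-1.63, then 1.67). Kmt2a read -0.18 and 0.14, 0.51 and 0.65, and 0.81 and 0.35 on those 3 pairs, and its steps fitted -0.02 and 0.59 (0.43 and 0.31 without centring).

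All 4 genes of DNA methylation were lower at 13.5 than at 11.5 dpc, and all 4 were lower in both steps, with a median of -1.37 that was the lowest of the 8 roles. Besides the de novo enzymes, Uhrf1, which brings Dnmt1 to newly replicated DNA, had -1.07 (-0.72 and -1.42 on the direct arrays) and steps of -0.53 and -0.54 (-0.08 and -0.82 without centring). Dnmt1, the maintenance enzyme, had the smallest difference, -0.78. Its arrays read -0.64 and -0.94 for 13.5 over 11.5 dpc, -0.51 and 0.16 for 13.5 over 12.5 dpc, and -0.83 and -0.33 for 12.5 over 11.5 dpc. The later step of Dnmt1 was within its technical error (-0.19 against 0.33) and the earlier one was not (-0.59 against 0.25), but without centring this was the other way round (-0.47 and -0.14).

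Dnmt1 and Uhrf1 are genes whose transcription follows the cell cycle, and E2F factors are known to drive such genes through sites of the form TTTCCCGC, TTTCGCGC, TTTGCCGC or TTTGGCGC. A search for these 4 words on both strands found at least 1 in a promoter window of 4 of the 30 genes (2.6% of all genes in the table): Dnmt1, Uhrf1, Ezh2 and Suz12. Each word holds a CpG, and these 30 genes were rich in CpG (median 31 against 8 over all genes). The share over all genes is therefore not matched for CpG, and no excess can be read from it. Of the 5 genes past 3-fold, 1 (Ezh2) had a match. The matches are shown in capitals within 30 bases, 5′ to 3′ on the strand of the gene, with positions counted from the start as 1 and negative before it. They lie at -219 to -212 (reverse complement) and 34 to 41 in 1 of the 3 windows of Dnmt1 (chr9:20952824-20952853 and chr9:20952574-20952603, minus strand), at -185 to -178 in 1 of the 2 windows of Uhrf1 (chr17:56304117-56304146, plus), at 4 to 11 of Ezh2 (chr6:47595009-47595038, minus) and at -219 to -212 of Suz12 (chr11:79992876-79992905, plus).
Dnmt1 upstream: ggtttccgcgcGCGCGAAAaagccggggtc
Dnmt1 downstream: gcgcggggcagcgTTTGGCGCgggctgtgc
Uhrf1: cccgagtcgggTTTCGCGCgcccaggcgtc
Ezh2: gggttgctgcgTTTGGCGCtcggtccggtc
Suz12: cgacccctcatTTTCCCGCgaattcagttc
The 4 genes had fitted values for 13.5 over 11.5 dpc of -0.78, -1.07, -2.20 and -0.51, so they spanned most of the range of the genes that were lower. A match is a word in a sequence and says nothing on binding.

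Among the Tet dioxygenases, Tet2 was lower, at -1.12, and Tet1 and Tet3 lay close to 0. Tet2 read -1.12 and -1.13 on the 13.5 over 11.5 dpc arrays, -0.24 and -0.06 on the 13.5 over 12.5 dpc arrays, and -1.04 and -0.87 on the 12.5 over 11.5 dpc arrays. Its direct pair was the closest among the 10 genes at least 2-fold lower apart from that of Smarca5. Both are means over several spots, and those of Tet2 differed in both directions (-1.67 and -2.14, -1.18 and -0.64, and -0.52 and -0.62). The closeness is therefore not that of single spots. The steps of Tet2 fitted -0.96 and -0.16, but -0.52 and -0.44 without centring. Its 3 spots ranged over -2.06 to -0.57, and the lowest of them, which was not dim, had -1.07 and -0.99 in the 2 steps. Tet1 read 0.06 and 0.09, 0.00 and 0.45, and -0.52 and -0.04 on the same pairs and fitted 0.03. Tet3 fitted -0.01, with spots at -0.93, 0.41 and 0.50, and its sign turned under 9 of 16 other ways of processing the data.

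**Figure D2:**
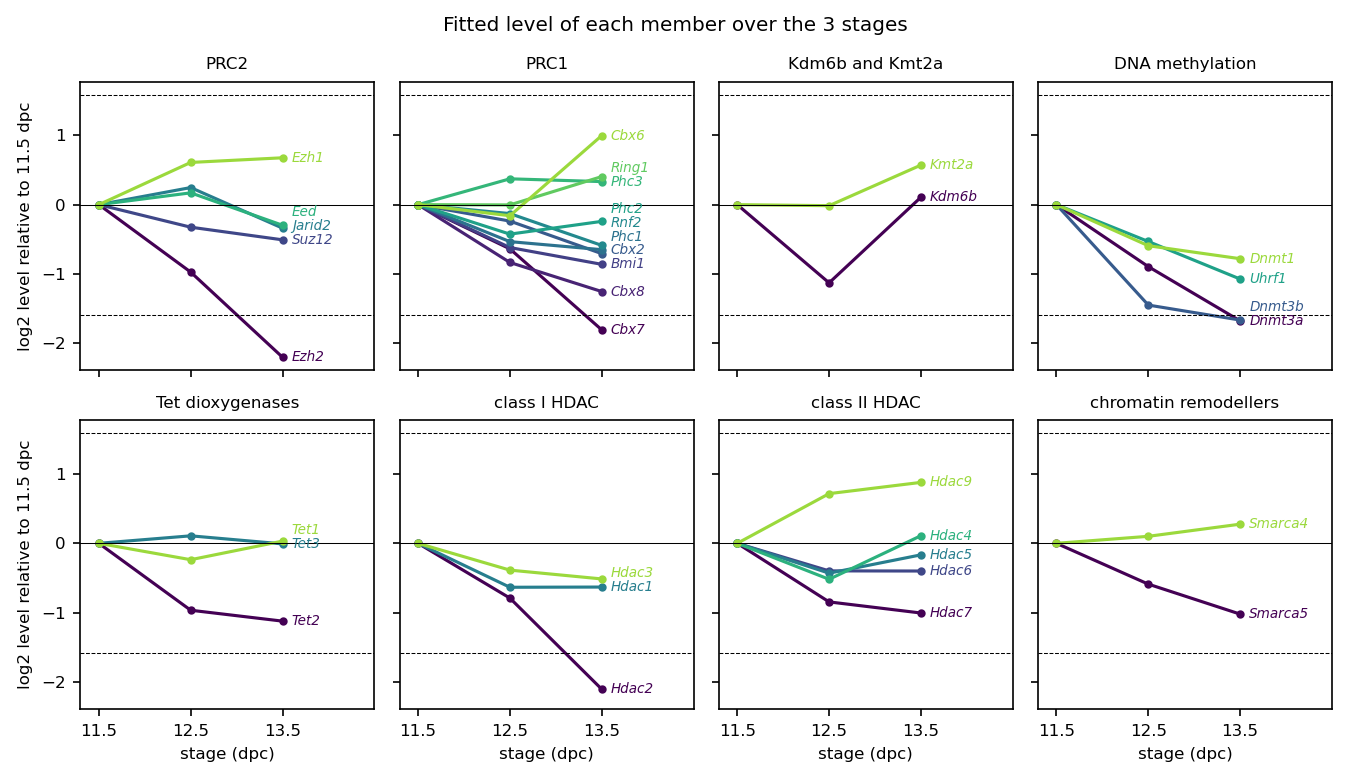
Fitted log2 level of each gene relative to 11.5 dpc at the 3 stages (horizontal axis, dpc), with 1 panel for each role and dashed lines at 3-fold. Ezh2, Cbx7, Hdac2, Dnmt3a and Dnmt3b end below the lower line; the height at 12.5 dpc depends on the centring of the arrays, for example -1.45 for Dnmt3b and -0.96 for Tet2 as drawn and -0.999 and -0.52 without it.

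The class I deacetylases Hdac1, Hdac2 and Hdac3 were all lower at 13.5 than at 11.5 dpc, but only Hdac2 was so on both arrays by a wide margin. Hdac1, the closest paralogue of Hdac2 and its partner in the Sin3, NuRD and CoREST complexes, fitted -0.63 from direct arrays at 0.03 and -1.26, a spread (technical error 0.65) larger than the difference. Hdac3, the enzyme of the NCoR and SMRT complexes, read -0.01 and -1.04 on the 13.5 over 11.5 dpc arrays, -0.03 and -0.20 on the 13.5 over 12.5 dpc arrays, and -0.38 and -0.37 on the 12.5 over 11.5 dpc arrays, and its fit of -0.51 was also within its technical error (0.52). Both had 1 spot. The differences of Hdac1 and Hdac3 at 13.5 dpc were therefore not larger than the technical error of their direct pairs. The indirect path gave -0.66 for Hdac1 and -0.49 for Hdac3, and Hdac3 lay below 0 on all 6 arrays. Both kept their sign under 16 of 16 other ways of processing the data. Their values for 12.5 over 11.5 dpc (-0.63 and -0.39) became -0.19 and 0.06 without centring, the first inside its technical error of 0.26 and the second with the sign turned.

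The class II deacetylases ran in both directions. Hdac7, best known in endothelium and thymocytes, was the lowest, at a 2.01-fold lower level. Its arrays read -1.32 and -1.13 for 13.5 over 11.5 dpc, -0.30 and 0.42 for 13.5 over 12.5 dpc, and -0.36 and -0.88 for 12.5 over 11.5 dpc. The indirect path gave only -0.56, but the 2 spots of Hdac7 differed in this. The spot that was not dim fitted -1.03. It read -0.77 and -1.40 on the direct arrays, -0.17 and 0.14 in the later step, and -0.77 and -1.07 in the earlier one. The dim spot fitted -0.975 and read -1.88 and -0.86, -0.43 and 0.70, and 0.05 and -0.70 on the same pairs. Endothelial markers were lower too (5 of 7 below 0, median -0.64), a link that was not tested. Hdac9, a class IIa enzyme abundant in muscle, was the highest at 0.88. Hdac9 read 0.51 and 0.93, 0.31 and 0.32, and 0.94 and 0.80 on the 3 pairs, all above 0, and its steps fitted 0.72 and 0.16 (1.16 and -0.12 without centring). Its 4 spots ranged over 0.47 to 1.05 for the whole interval, the 2 highest being dim, and divided it differently between the steps. The spots that were not dim fitted 0.41 then 0.06, and 0.05 then 0.915. The dim ones fitted 0.44 then 0.58, and 1.96 then -0.90. The array values of Hdac9 are means over these spots. Skeletal muscle markers had a median of 0.72 for 12.5 over 11.5 dpc and 0.26 for 13.5 over 11.5 dpc, and their part was not tested. Hdac4, the regulator of hypertrophy, fitted 0.11 for the whole interval, with a lower value at 12.5 dpc (-0.52, direct arrays -0.71 and -0.36) and a higher one after it (0.63, direct arrays 0.52 and 0.71). Both steps of Hdac4 exceeded their technical errors (0.18 and 0.10), but without centring the earlier step was -0.07, inside its error, and the later one 0.35. Hdac5 and the mainly cytoplasmic Hdac6 had -0.17 and -0.40, and the direct arrays of Hdac5 had opposite signs (0.32 and -0.63).

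Of the chromatin remodellers, Smarca5, the ISWI ATPase, had the lower value. It read -1.10 and -1.10 on the 13.5 over 11.5 dpc arrays, -0.48 and -0.22 on the 13.5 over 12.5 dpc arrays, and -0.56 and -0.45 on the 12.5 over 11.5 dpc arrays. The 4 spots of its RefSeq transcript fitted -1.49 to -1.06 and a clone spot fitted 0.07, and their mean was -1.02. Smarca4, the BAF ATPase Brg1, read 0.80 and -0.25, 0.73 and -0.37, and 0.48 and -0.27 on the same pairs. Array 1 lay above 0 and array 2 below 0 in every pair of Smarca4, so its fit of 0.28 had no settled sign.

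**Figure D3:**
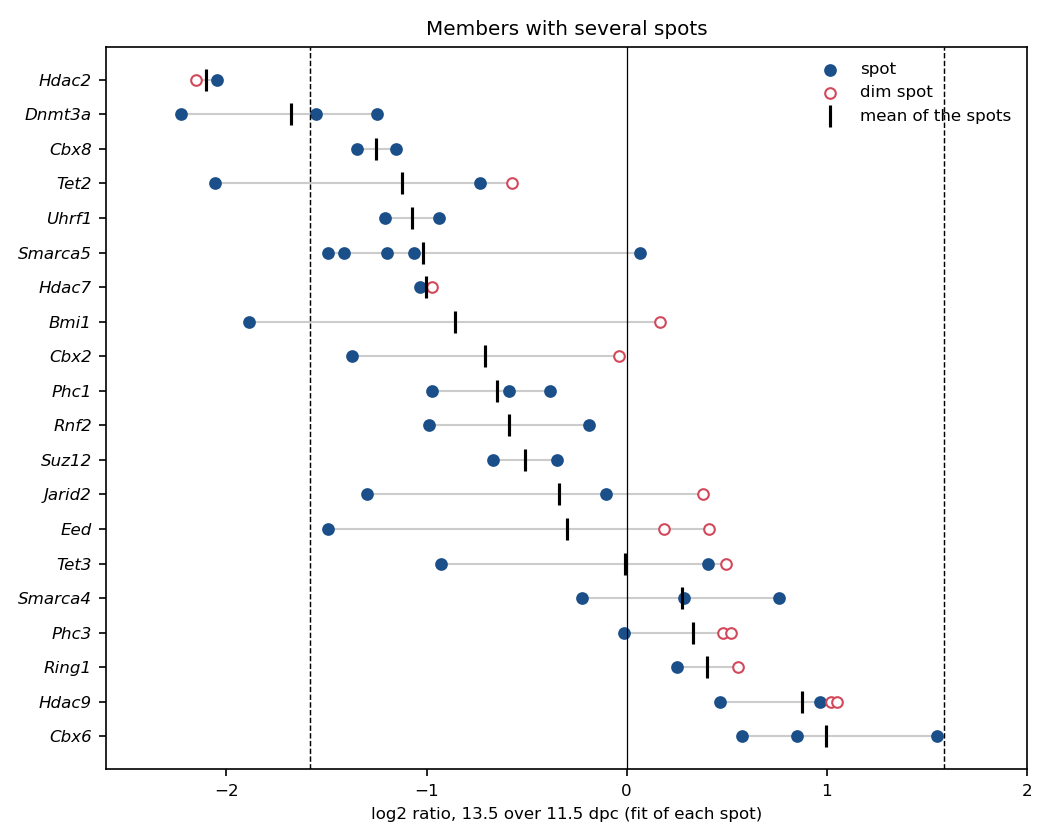
Fitted log2 ratio of 13.5 over 11.5 dpc of each spot for the 20 genes with several spots, with open circles for dim spots, bars for the mean and dashed lines at 3-fold. The spots of Hdac2 lie within 0.11 of each other, whereas those of Bmi1, Eed, Jarid2 and Tet3 lie on both sides of 0.

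Agreement between spots set a limit on single genes. Of the 20 genes with several spots, 7 had spots on both sides of 0 for 13.5 over 11.5 dpc (Bmi1, Eed, Jarid2, Phc3, Smarca4, Smarca5 and Tet3). The 53 member spots that were not dim had a median of -0.67, with 39 below 0 (15004 of 29992 over all spots that were not dim) and 7 at least 3-fold lower (4.75%), and the 15 dim spots had a median of 0.41. Over the whole array the medians were -0.00 for spots that were not dim and 0.23 for dim spots. In 10 of the 11 genes with both kinds of spot, the spots that were not dim gave the lower value, the exception being Hdac2.

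By stage, no member was past 3-fold in either step with centring, and without it Hdac2 was for 13.5 over 12.5 dpc (-1.59). That value is a mean over 2 spots, which with centring fitted -1.63 (dim) and -0.99 (not dim) in this step. For 12.5 over 11.5 dpc 0 of 34 were at least 3-fold lower (0.299% of all genes) and 0 at least 3-fold higher (1.24%), with 2 at least 2-fold lower (Dnmt3b and Kdm6b; 2.56%) and 0 at least 2-fold higher (6.23%). For 13.5 over 12.5 dpc 0 were at least 3-fold lower (0.776%) and 0 at least 3-fold higher (1.35%), with 3 at least 2-fold lower (Ezh2, Hdac2 and Cbx7; 3.7%) and 2 at least 2-fold higher (Kdm6b and Cbx6; 4.79%). Of the 34, 18 were lower in both steps (22.8% of all genes), 3 higher in both (Ezh1, Hdac9 and Smarca4; 18.5%), 9 lowest at 12.5 dpc (28.0%) and 4 highest at 12.5 dpc (Eed, Jarid2, Phc3 and Tet3; 30.7%). These courses rest on the centring: without it 14 were lower in both steps (14.6% of all genes), 3 higher in both (19.3%), 2 lowest at 12.5 dpc (5.72%) and 15 highest at 12.5 dpc (60.3%). They rest on dim spots too, since each of the 4 genes highest at 12.5 dpc with centring had a dim spot in its mean. The spots that were not dim fitted -0.68 then -0.81 for Eed and -0.55 then 0.54 for Phc3. Those of Jarid2 fitted -0.45 then -0.85, and -0.01 then -0.09. Those of Tet3 fitted -0.69 then -0.24, and 0.535 then -0.13. Over all dim spots the medians of the steps were 0.46 and -0.25.

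**Figure D4:**
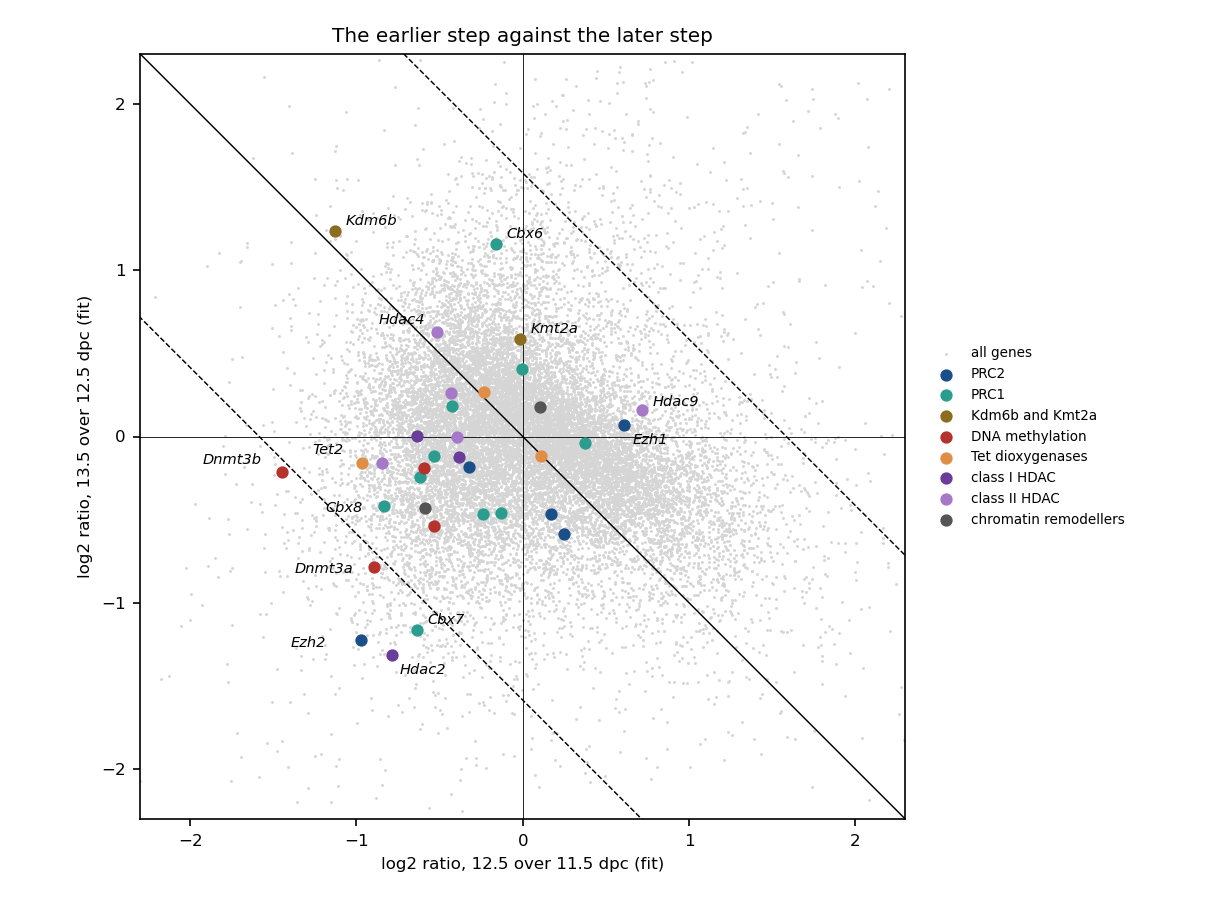
Fitted log2 ratio of 12.5 over 11.5 dpc (horizontal) against 13.5 over 12.5 dpc (vertical) for the members, coloured by role, and all genes in grey within the range shown; the solid diagonal marks no net difference over the whole interval and the dashed ones 3-fold. Arrays are centred, which places the points along both axes. Ezh2, Hdac2, Cbx7, Dnmt3a and Dnmt3b lie below the lower dashed line, Dnmt3b far to the left, and Kdm6b lies at the upper left near the solid line.

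As a group the 34 genes were lower at 13.5 than at 11.5 dpc, with a median of -0.51 against 0.07 over all genes. Of them, 24 were below 0 (45.4% of all genes), 20 were below 0 on both direct arrays (35.3%), 6 were above 0 on both (34.0%), 8 had direct arrays of opposite sign (28.2%), and 12 were below 0 on all 6 arrays (11.1%). The difference was larger than the technical error of the direct pair in 26 of the 34 (68.7% of all genes). The direct arrays differed in size: the members' median was -0.30 on array 1 and -0.90 on array 2 (0.02 and -0.04 over all genes), and 25 of the 34 were lower on array 2. The 12 housekeeping genes parted in the same way, at 0.34 and -0.73, so small differences of a member depend on which array is read. The earlier step had a median of -0.43 (-0.01 over all genes) with 27 of 34 below 0 (50.8% of all genes), and the later one -0.14 (-0.04 over all genes) with 22 below 0 (53.5%). All genes include those with dim spots only. Among the 15428 genes with a spot that was not dim, the earlier step had a median of -0.12 with 9114 below 0. The later one had 0.015 with 7541 below 0, and the whole interval 0.005 with 7672 below 0. On the values as deposited, without centring, the median was 0.02 for the earlier step (16 of 34 below 0) and -0.42 for the later one (29 below 0), against 0.44 and -0.32 over all genes (20.3% and 74.9% below 0). Under both settings the members' medians lay below those of all genes in each step, while the sign of the earlier one depended on the centring.

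The other genes of these pathways were listed for comparison, and 83 of 89 had a spot. For 13.5 over 11.5 dpc 3 of the 83 were at least 3-fold lower (2.57% of all genes) and 0 at least 3-fold higher (2.93%), 57 were below 0 (45.4%), and the median was -0.27. The share past 3-fold was thus near that of all genes. Other Polycomb genes (23 measured) had a median of -0.27 with none past 3-fold and ranged from Mtf2, a PRC2 cofactor, at -1.22 to L3mbtl2, a PRC1 variant subunit, at 0.82. Other DNA methylation genes (13) had a median of -0.46. Hells, the remodeller that DNA methylation of repeats requires, was at -2.18 (-2.05 and -2.27 on the direct arrays), next to Ezh2 in size, and Apobec2, a deaminase family member of muscle, was highest at 0.65 after a peak at 12.5 dpc (2.04, then -1.39). Other deacetylases and co-repressors (22) had a median of -0.23, from Sap30, a Sin3 complex subunit, at -1.93 to Hdac10 at 0.66, and other remodellers and trithorax genes (25) a median of -0.19, from Baz1a, a partner of Smarca5, at -1.99 to Actl6b at 0.39.

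Genes of DNA replication and mitosis were lower as well. All 24 of those measured were below 0 for 13.5 over 11.5 dpc (45.4% of all genes), 11 of them on both direct arrays (35.3%), with a median of -0.41, and 2 were at least 3-fold lower (2.57%), Top2a (-1.88), the topoisomerase of dividing cells, and Bub1 (-1.64), a mitotic checkpoint kinase. Their medians on the direct arrays were 0.05 and -0.97, a wider gap than for the members. By step the medians were -0.17 and -0.26, against -0.43 and -0.14 for the 34 chromatin genes. Ezh2, Dnmt1 and Uhrf1 are known to be expressed with the cell cycle, and the part of proliferation in their lower values was not tested.

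**Figure D5:**
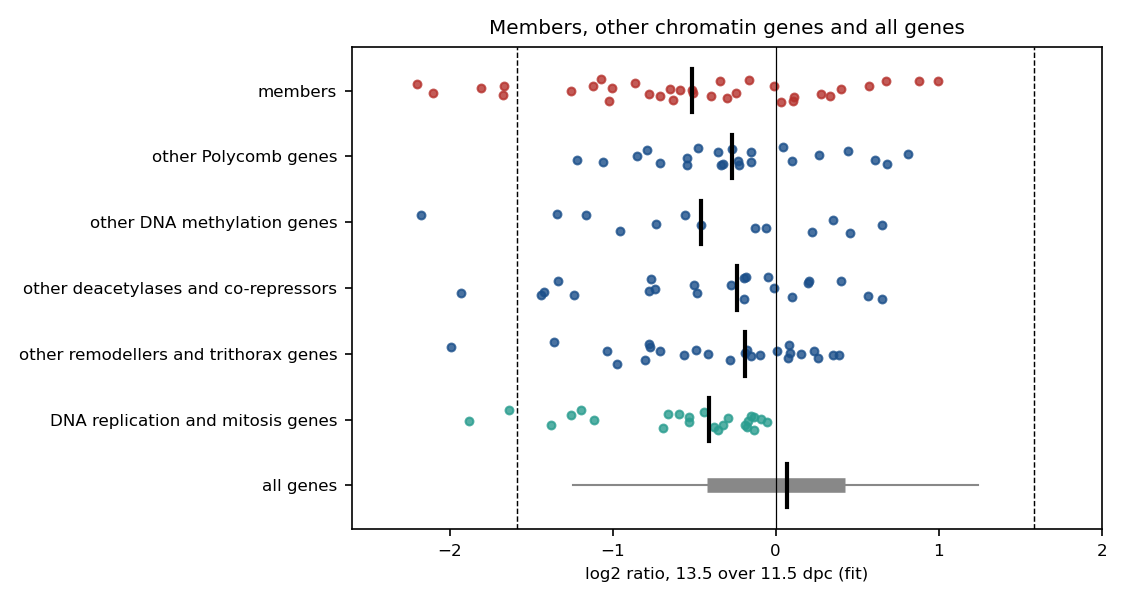
Fitted log2 ratio of 13.5 over 11.5 dpc for the members (red), other chromatin genes (blue) and DNA replication and mitosis genes (green), 1 point per gene and a bar at each median; for all genes the thick line spans the middle 50% and the thin line the 5th to 95th percentile, and dashed lines mark 3-fold. The members' median is -0.51, those of the other lists -0.46 to -0.19, and that of all genes 0.07.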

How the data were processed

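Log2 ratios of Cy5 over Cy3 were deposited by the authors for 45220 spots on each of 6 two-colour Agilent arrays, scanned and quantified with GenePix. No intensities were used here. A print-tip loess normalisation is described, yet the deposited medians ranged from -0.355 to 0.725, and between 39 and 60 values per array sat at a cap. Values above 16 in size were set to missing, and 136 to 1905 spots per array had no value. The median of each array was subtracted, ratios were turned to later over earlier stage from the labelled dyes, and 2 differences were fitted by least squares to the 6 arrays (numpy 2.4.6, pandas 2.3.3, Python 3.11.15). The fit was tested on simulated data. The sum of the 2 steps departed from the direct comparison with an SD of 0.452 over spots. A spot was called dim when at least 2 arrays held log2 ratios of whole numbers up to 12, within 0.0006. Gene values are means over spots with 1 symbol (33653 spots; 56 carried several).

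Both dye-swapped arrays of a pair carry the same pooled RNA and count as 1 replicate, so no test was made; 3-fold is the threshold of the study's methods. Values of all 6 arrays are printed for members past 3-fold and for the highest and lowest member of each of the 8 roles; genes of other lists are named only if past 3-fold or highest or lowest of their list, and further members were chosen after their values were seen. Members and lists were chosen with earlier results of these data known. Alternatives covered centring, scaling, direct or indirect arrays, a dye term, the joining and filtering of spots, the threshold and leaving out each array.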

Additional observations from a re-analysis of the deposited data

How the results depend on the processing

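With 1 pool per stage and no intensities, biological spread and absolute levels are unknown, and a 3-fold line separates genes whose technical errors overlap it: Dnmt3a and Dnmt3b were past it under 13 of 16 alternatives, Ezh2, Hdac2 and Cbx7 under 16 of 16, and Bmi1 under 1 (without dim spots). Without centring, 3 members were past 3-fold lower for 13.5 over 11.5 dpc (Ezh2, Hdac2 and Cbx7) and 1 (Hdac2) for 13.5 over 12.5 dpc, and the medians were 0.021 for 12.5 over 11.5 dpc and -0.421 for 13.5 over 12.5 dpc. Over all genes that setting moved the medians to 0.44 (12.5 over 11.5 dpc), -0.321 (13.5 over 12.5 dpc) and 0.238 (13.5 over 11.5 dpc), and the share of genes below 0 to 20.3%, 74.9% and 36.3%. Without centring 16, 29 and 22 of the 34 members were below 0 in these comparisons, in place of 27, 22 and 24. The indirect path alone gave 1 member past 3-fold lower for 13.5 over 12.5 dpc (Hdac2). In the main fit the Hdac2 spot that was not dim had -0.99 in that step. The median for 12.5 over 11.5 dpc was -0.533 without dim spots and -0.255 with arrays centred on spots that are not dim, a setting chosen after seeing the data. At 2-fold the counts were 2 lower for 12.5 over 11.5 dpc, 3 lower and 2 higher for 13.5 over 12.5 dpc and 10 lower for 13.5 over 11.5 dpc; requiring 3-fold on both direct arrays too left 3 (Ezh2, Hdac2 and Cbx7). Leaving out each array in turn gave medians of -0.522 to -0.319 for 12.5 over 11.5 dpc, -0.201 to -0.097 for 13.5 over 12.5 dpc and -0.624 to -0.305 for 13.5 over 11.5 dpc, 0 to 1 member lower for 13.5 over 12.5 dpc (Hdac2, without array 2 of that pair) and 3 to 5 for 13.5 over 11.5 dpc. The 3 came without array 2 of the direct pair, when Dnmt3a and Dnmt3b were no longer past 3-fold. With the dye combination as a replicate block the design is balanced and the fit is the same: the medians were -0.427, -0.141 and -0.51 and 5 members were lower. The cause of each shift was not tested.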

Other observations

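Several genes that Polycomb complexes are known to bind in other cells were past 3-fold. Of 12 genes of the Ink4 locus and the limb Hox clusters, 5 were past 3-fold lower for 13.5 over 11.5 dpc (2.57% of all genes) and 1 was at least 3-fold higher (2.93%), with a median of -1.09. Cdkn2b, the p15 inhibitor of cyclin D kinases encoded at the Ink4 locus, fitted 3.20, a 9.19-fold higher level, from direct arrays at 3.48 and 2.93, and most of it came after 12.5 dpc (0.69, then 2.51). The 5 lower genes were Hoxd10 (-3.47), Hoxd11 (-3.15), Hoxa10 (-2.59), Hoxa9 (-2.03) and Hoxd9 (-1.61), patterning genes of the proximal and middle limb, and each was below 0 on all 6 arrays. Expression ratios carry no measure of histone marks, so no link between these genes and the Polycomb transcripts was tested.

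Among 9 measured partners of the class IIa deacetylases, Mef2c, the transcription factor that Hdac4 restrains in chondrocytes, fitted 1.88 for 13.5 over 11.5 dpc (1.89 and 2.31 on the direct arrays, 1.45 on the indirect path). Its 2 spots included 1 dim spot. Sik1, a kinase that releases class IIa enzymes from chromatin-bound factors in muscle, was past 3-fold lower for 12.5 over 11.5 dpc with centring (-1.75, arrays at -2.11 and -1.33; 0.299% of all genes) and had -1.28 over the whole interval. The earlier step depends on the centring, and without it 0.0734% of all genes were at least 3-fold lower there. The value of Sik1 without centring is not given here, so its place past 3-fold holds for the centred arrays only. The median of the 9 partners was 0.24.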
